A study of Mus musculus with 24 samples.

Results

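The comparison asks whether the difference between Cre+ and Cre- microglia at the start-tamoxifen remyelination stage is the same as the difference in cuprizone demyelination. It is an interaction: the Cre+ minus Cre- difference at remyelination minus the Cre+ minus Cre- difference in demyelination, on the log2 scale. The libraries were taken by their labels, 3 in each of 4 groups, which makes 12 of the 24 libraries of the series. Among the 49315 genes deposited, 17579 were abundant enough to be tested, and a gene is called where its p adjusted over those 17579 genes is under 0.05 (edgeR quasi-likelihood F test, 2-sided). A positive interaction means that the genotype difference was higher at remyelination, a negative one that it was lower there.

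All 12 libraries are RNA of adult mouse brain microglia, sorted as CD45-intermediate, CD11b-positive cells after tamoxifen. The 4 groups are Cre+ at remyelination, Cre- at remyelination, Cre+ in demyelination and Cre- in demyelination. Remyelination mice had 6 weeks of cuprizone diet followed by 6 weeks of normal diet, and demyelination mice had 6 weeks of cuprizone. In both states the labels place tamoxifen at the start and the series text at 4 to 5 weeks, for Cre+ and Cre- mice alike; whether these are weeks of age or of feeding is not stated. Cre+ mice carry creERT2, a tamoxifen-activated Cre recombinase, in the Cx3cr1 gene and are the induced Dicer1 knockouts. Cre- mice are called wild type and lack the recombinase; the labels name neither the Dicer1 allele nor the number of modified Cx3cr1 copies. Cre is thus driven by Cx3cr1 in every cell that uses that gene, and a Cre- mouse is no control for a changed Cx3cr1 copy. The diet stage, the time since tamoxifen and the sequencing depth change together between the states and cannot be told apart. The Cx3cr1 level of Cre+ libraries differed between the states too. It was 1.87% and 1.61% of the Cre- mean in demyelination replicates 1 and 3, against 47.64% to 59.27% at remyelination. The series text calls the 3 samples of a group biological replicates, and animals are not numbered.

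Dicer1 encodes the enzyme that trims precursor hairpins to mature miRNAs, small RNAs that hold down the output of many messenger RNAs. Cuprizone kills oligodendrocytes, and microglia answer by dividing, clearing myelin debris, loading lysosomes and presenting antigen; after return to normal diet these programmes wind down while new myelin forms.

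Totals were 10.7 to 12.56 M counts in Cre+ and 8.87 to 10.65 M in Cre- libraries at remyelination, against 22.38 to 32.71 M in Cre+ and 21.87 to 24.16 M in Cre- libraries in demyelination. The 6 defining microglial genes, Tmem119, P2ry12 and Sall1 among them, were present in all 12 libraries at a summed 27990 to 35100 CPM (counts per M, on scaled library sizes), and 0 of the 6 was called. Summed exon counts of Dicer1 gave 32.41 to 35.21 CPM in Cre+ mice and 33.86 to 39.11 CPM in Cre- at remyelination, and 11.62 to 17.49 CPM in Cre+ mice and 15.18 to 23.07 CPM in Cre- in demyelination (interaction 0.34 ± 0.23, SE, adjusted p = 0.464). A gene total does not resolve the loss of a deleted segment. Cx3cr1 stood at 3580, 3463 and 4309 CPM in Cre+ mice and at 7369, 6510 and 7932 CPM in Cre- libraries at remyelination. In demyelination it stood at 104.3, 2312 and 89.62 CPM in Cre+ mice and at 5277, 5318 and 6139 CPM in Cre- libraries. Demyelination Cre+ replicates 1 and 3 therefore held 1.87% and 1.61% of the Cre- mean, while replicate 2 held 41.46% and the 3 remyelination Cre+ libraries 47.64% to 59.27%. These 2 libraries stand apart, and the main counts are given with and without them. Another library that stands apart is remyelination Cre- replicate 2, where 10 neutrophil markers summed to 4106 CPM, against 541.2 and 1744 CPM in the other Cre- and 371.4 to 1082 CPM in the Cre+ libraries of that state.

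The genotype effect differed between the states for 657 genes (3.74% of those tested). It was lower at remyelination for 517 genes (2.94%) and higher for 140 (0.796%). In demyelination 1612 genes were called between genotypes (9.17%), of which 1001 (5.69%) were higher and 611 (3.48%) lower in Cre+. At remyelination 6 genes were called (0.0341%), all higher in Cre+, while 1657 passed an unadjusted p of 0.05, 510 of them higher and 1147 lower in Cre+. For the interaction 3261 genes passed an unadjusted p of 0.05. The typical error was alike in both states, with a median standard error of 0.208 at remyelination and 0.199 in demyelination. Over all genes the median log2 effect was -0.04 at remyelination, -0.01 in demyelination and -0.01 for the interaction.

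**Figure D1:**
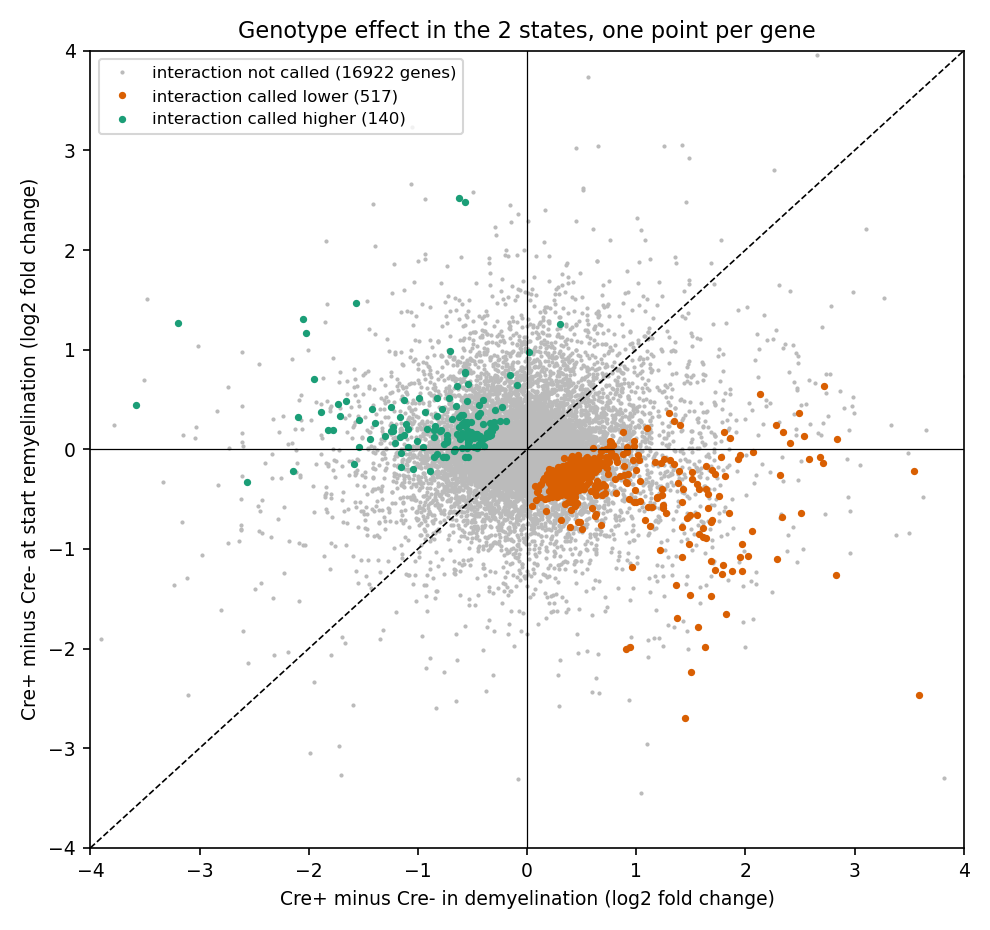
Log2 difference between Cre+ and Cre- at remyelination (vertical axis) against the same difference in demyelination (horizontal axis), one point per gene, with the 517 genes called lower and the 140 called higher in the interaction coloured. The dashed diagonal marks equal effects, 37 genes lie outside the axes, 5 of them called, and most orange points lie below 0 on the vertical axis, a position that the choice of genes favours.

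The calls were sorted by where the genotype difference itself was called, a description in which the sign and size of the effects follow in part from the choice of genes. Of the 517 lower calls, 356 were called in demyelination and not at remyelination, and 161 were called in neither state alone. Those 356 genes had a median effect of -0.25 at remyelination and 0.57 in demyelination, with the opposite sign at remyelination in 330. Of the 140 higher calls 116 were called in demyelination and not at remyelination, 2 at remyelination and not in demyelination, and 22 in neither. The 116 had a median effect of 0.16 at remyelination and -0.72 in demyelination, with the opposite sign at remyelination in 101. Together these are 472 of the 1612 demyelination calls, or 35.6% of those higher and 19% of those lower in Cre+. Among the 472 the 95% interval of the remyelination effect included 0 for 323 and lay wholly on the other side of 0 for 149; for 0 of them did it lie wholly on the same side.

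The remaining 1140 demyelination calls had no called interaction, so a change of their genotype effect was not shown. Their effect had the same sign at remyelination in 682, and the 95% interval at remyelination included the demyelination estimate for 158. That count leaves out the error of the demyelination estimate and the choice of genes by their demyelination call. It therefore does not show a changed effect for the others. An interval that includes 0 does not show that an effect was gone.

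Libraries of the other states did not enter these contrasts, other than through the shared filter, scaling and estimate of spread. In the group given tamoxifen at the peak, in week 5 of cuprizone, and kept on normal diet for 6 weeks, 137 of the 356 were called higher in Cre+ and 2 lower, with a median effect of 0.30, where 6.99% of all tested genes were called higher and 4.02% lower (11% in all). Of the 116, 26 were called lower there and 1 higher, with a median of -0.28. In naive mice 107 of the 356 were called higher and 55 lower in Cre+, where 14.7% of all tested genes were called higher and 13.7% lower (28.3% in all). Of the 116, 37 were called lower and 11 higher there.

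The count of 657 depended on the libraries. Without demyelination Cre+ replicates 1 and 3, 3 genes were called (the lone Cre+ library left there was taken to be as variable as the rest), and without the naive Cre+ library of low Cx3cr1 as well 44 were called, 33 of them among the 657. Leaving out 1 library at a time gave 96, 1173 and 365 genes without demyelination Cre+ replicate 1, 2 or 3 and 374, 294 and 144 without demyelination Cre- replicate 1, 2 or 3. It gave 310, 107 and 658 genes without remyelination Cre+ replicate 1, 2 or 3 and 361, 89 and 580 without remyelination Cre- replicate 1, 2 or 3. None of the 657 changed sign in any of these fits, and without the 2 libraries their interactions had a median of 0.847 times their size with all libraries. With upper quartile scaling the calls split into 190 higher and 329 lower, 63.4% lower, against 78.7% with TMM scaling.

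Genes of mitosis had the lowest interactions among the named genes that were called. Of the 12 protein-coding genes with the most negative called interaction, among those with a mean log2 CPM of at least 2, 8 act in cell division: the ubiquitin ligase partner Ube2c (-3.39 ± 0.61, SE), the mitotic kinase gene Pbk (-3.03 ± 0.63), the proliferation marker Mki67 (-3.03 ± 0.60), the cyclin gene Ccnb1 (-2.96 ± 0.58), the spindle motor gene Kif11 (-2.80 ± 0.68), the PCNA-binding factor Pclaf (-2.50 ± 0.50), the chromosomal passenger gene Birc5 (-2.40 ± 0.53) and the cytokinesis gene Ect2 (-2.19 ± 0.50). Of 22 listed genes of G2 and mitosis 13 were called lower and 0 higher in the interaction, and all 22 values were negative. Over all tested genes 2.94% were called lower and 0.796% higher. The list median was -1.99 for the interaction, -0.55 at remyelination and 1.58 in demyelination. In demyelination 21 of the 22 were called higher in Cre+, against 5.69% of all tested genes. In bulk samples fewer dividing cells and less RNA of these genes per cell cannot be told apart.

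Ube2c (ENSMUSG00000001403, chromosome 2, 164769898 to 164778822 in GRCm38) stood at 1.146, 1.115 and 0.5601 CPM in Cre+ mice and at 0.7852, 3.022 and 2.265 CPM in Cre- libraries at remyelination. Its levels in demyelination were 29.76, 26.74 and 24.57 CPM in Cre+ mice and 5.536, 5.039 and 5.959 CPM in Cre- libraries. The groups overlapped at remyelination, while in demyelination every Cre+ library lay above every Cre- library. The log2 effect was -1.10 at remyelination (95% interval -2.15 to -0.06, adjusted p = 0.496) and 2.29 ± 0.35 in demyelination (adjusted p = 0.000472), and the interaction had adjusted p = 0.00776 (edgeR, n = 3 per group).

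Mki67 (chromosome 7, 135689784 to 135716361) stood at 2.749, 3.543 and 2.16 CPM in Cre+ mice and at 4.122, 7.201 and 6.627 CPM in Cre- libraries at remyelination. In demyelination it stood at 26.89, 28.91 and 27.8 CPM in Cre+ mice and at 7.18, 6.423 and 7.946 CPM in Cre- libraries. Cre+ lay below Cre- without overlap at remyelination and above it without overlap in demyelination. The remyelination effect of -1.08 had an interval of -2.07 to -0.09 and did not pass the adjusted threshold (adjusted p = 0.491), against 1.95 ± 0.38 in demyelination (edgeR adjusted p = 0.00416). Within Cre+ the level at remyelination was lower than in demyelination by -3.29 ± 0.43 (edgeR adjusted p = 2.63e-06), and within Cre- the difference was -0.26 ± 0.42 (adjusted p = 0.623).

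Ccnb1 (chromosome 13, 100778650 to 100786570) had 1.451, 1.575 and 0.8001 CPM in Cre+ mice and 1.963, 4.178 and 2.517 CPM in Cre- libraries at remyelination. It had 32.89, 31.18 and 28.18 CPM in Cre+ mice and 7.838, 9.635 and 9.081 CPM in Cre- libraries in demyelination. The order of the genotypes was turned round between the states for this gene too, with no overlap in either. Its remyelination levels, all under 5 CPM, rest on few reads, and 0 of the 22 listed genes was called between genotypes in that state. Other members called in the interaction were the mitotic kinase genes Plk1 (-2.22), Aurka (-1.91), Aurkb (-1.80), Bub1 (-3.10), Bub1b (-1.95) and Cdk1 (-1.36). The cyclin gene Ccnb2 (-2.03) and the spindle gene Nusap1 (-2.49) were called in it as well. Cdk1 stood in demyelination at 49.89 to 58.97 CPM in Cre+ mice and 21.8 to 23.9 CPM in Cre-, with 2.979 to 3.805 CPM in Cre+ mice and 2.845 to 4.698 CPM in Cre- at remyelination.

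These genes were also called higher in Cre+ with tamoxifen at the peak and in naive mice. At the peak the Cre+ minus Cre- effect was 3.88 for Ube2c (edgeR adjusted p = 1.26e-05), 4.37 for Mki67 (adjusted p = 1.02e-05), 3.66 for Ccnb1 (adjusted p = 9.98e-06) and 3.95 for Birc5 (adjusted p = 2.88e-06). In naive mice the effect was 1.92 for Ube2c (edgeR adjusted p = 0.000626), 1.85 for Mki67 (adjusted p = 0.00169) and 1.47 for Birc5 (adjusted p = 0.00133). The peak-tamoxifen mice were kept on normal diet for 6 weeks like the start-tamoxifen mice and differed from them in the timing of tamoxifen.

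With demyelination Cre+ replicates 1 and 3 left out the mitotic interactions were about as large. They were -3.38 for Ube2c, -3.09 for Mki67, -2.98 for Ccnb1 and -2.43 for Birc5. That fit leaves 1 Cre+ library in demyelination, so it cannot decide which of these genes pass the test. The listed calls numbered 6, 6 and 5 without demyelination Cre- replicate 1, 2 or 3, 3 without demyelination Cre+ replicate 1, 1 and 5 without remyelination Cre- replicate 2 or 3, and 7, 5 and 7 without remyelination Cre+ replicate 1, 2 or 3. Neutrophil markers went in the same direction without passing the test: all 10 had a negative interaction (median -2.74), 0 was called, and their summed level was 371.4 to 1082 CPM in Cre+ mice and 541.2 to 4106 CPM in Cre- at remyelination, and 1345 to 1689 CPM in Cre+ mice and 216.9 to 922.3 CPM in Cre- in demyelination. Within remyelination Cre- both sums were highest in replicate 2, at 4106 CPM for neutrophil markers and 76.1 CPM for the 22 mitotic genes. Their part in the mitotic result was not tested.

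Promoters of the mitotic genes are shown because those genes moved together and many G2 and mitosis genes carry the cell cycle homology region (CHR, TTTGAA) and CCAAT boxes near their start. The 250 bases before each RefSeq gene start (GRCm38.p6) were searched on both strands; capitals mark every TTTGAA or CCAAT on either strand (read as TTCAAA or ATTGG on the other one), and neighbouring matches can overlap.
Ube2c promoter, chr2:164769679-164769928, plus strand: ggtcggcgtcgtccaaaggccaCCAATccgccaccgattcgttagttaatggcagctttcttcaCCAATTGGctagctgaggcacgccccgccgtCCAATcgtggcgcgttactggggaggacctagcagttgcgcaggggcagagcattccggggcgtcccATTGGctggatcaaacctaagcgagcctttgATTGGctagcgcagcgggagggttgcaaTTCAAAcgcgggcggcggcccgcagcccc
Mki67 promoter, chr7:135716380-135716629, minus strand: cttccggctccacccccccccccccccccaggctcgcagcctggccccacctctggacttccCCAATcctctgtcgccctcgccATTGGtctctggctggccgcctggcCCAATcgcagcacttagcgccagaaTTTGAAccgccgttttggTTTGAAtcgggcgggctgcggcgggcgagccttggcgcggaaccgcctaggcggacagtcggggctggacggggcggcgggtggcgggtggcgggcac
Ccnb1 promoter, chr13:100786487-100786736, minus strand: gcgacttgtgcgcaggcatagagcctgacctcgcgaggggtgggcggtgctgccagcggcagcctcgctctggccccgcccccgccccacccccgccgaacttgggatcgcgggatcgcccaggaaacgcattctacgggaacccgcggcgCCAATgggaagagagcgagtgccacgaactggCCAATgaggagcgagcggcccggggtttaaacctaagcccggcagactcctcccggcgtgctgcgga
Birc5 promoter, chr11:117848987-117849236, plus strand: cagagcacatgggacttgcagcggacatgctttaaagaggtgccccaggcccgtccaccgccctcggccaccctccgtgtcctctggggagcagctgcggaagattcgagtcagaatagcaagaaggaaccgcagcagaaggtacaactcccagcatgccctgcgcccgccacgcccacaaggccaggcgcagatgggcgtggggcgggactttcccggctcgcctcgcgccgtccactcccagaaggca
TTTGAA was present in 7 of 17 promoters of listed mitotic genes (41.2%) and in 11.1% of 14599 promoters, from the 11436 tested genes with a match. CCAAT was present in 14 of the 17 (82.4%) and in 34.8% of the 14599. Promoters were given for 17 of the 22 genes. The Ube2c window held 1 TTTGAA and 6 CCAAT matches, the Mki67 window 2 and 3, the Ccnb1 window 0 and 2, and the Birc5 window 0 of each. The matches describe these windows only.

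S-phase genes followed to a smaller extent. Of 21 listed genes 3 were called lower in the interaction: the cyclin gene Ccne2 (-2.16 ± 0.43, adjusted p = 0.0109), the replication clamp gene Pcna (-0.72 ± 0.15, adjusted p = 0.0114) and the ribonucleotide reductase gene Rrm1 (-0.70 ± 0.18, adjusted p = 0.0323). All 21 values were negative, with a median of -0.72, and 2.94% of all tested genes were called lower. Ccne2 stood at 1.222 to 3.041 CPM in Cre+ mice and 3.02 to 3.467 CPM in Cre- at remyelination, and at 11.13 to 11.89 CPM in Cre+ mice and 3.453 to 4.493 CPM in Cre- in demyelination. In their promoters 2 of 21 windows (9.5%) held TTTGAA and 11 (52.4%) held CCAAT. Without demyelination Cre+ replicates 1 and 3 it was 0; the count of 3 was 2 without any of 7 single libraries and 1 without remyelination Cre- replicate 2.

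**Figure D2:**
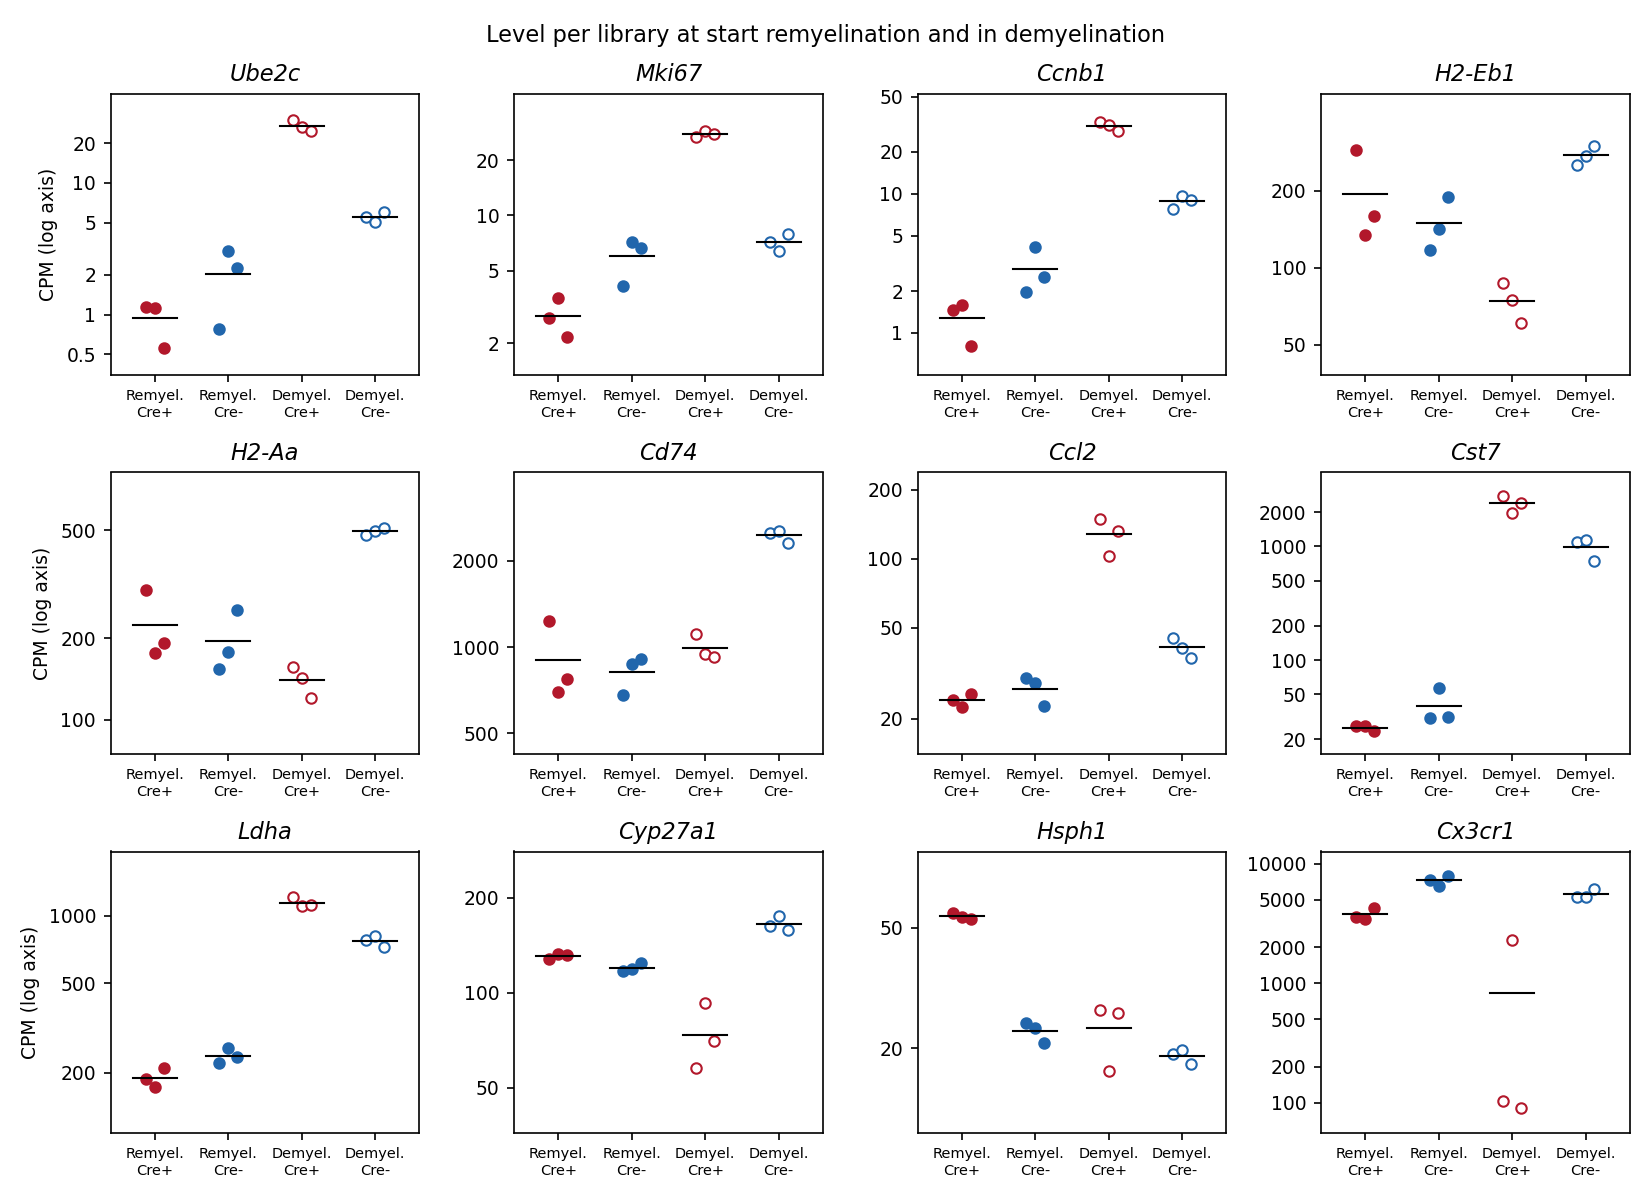
CPM of 12 genes on log axes, one point per library and a bar at the mean of 3, for Cre+ and Cre- at remyelination (filled) and Cre+ and Cre- in demyelination (open). Cre+ (red) lies apart from Cre- (blue) in demyelination for Ube2c, Mki67, Ccnb1, the class II genes, Ccl2, Cst7, Ldha, Cyp27a1 and Cx3cr1. Of these Mki67, Ccnb1, Cst7, Ldha, Cyp27a1 and Cx3cr1 are apart at remyelination as well. Hsph1 is apart at remyelination alone, at 53.29 to 55.68 CPM in Cre+ mice and 20.8 to 24.14 CPM in Cre-.

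MHC class II genes, which present peptides to CD4 T cells, supplied 4 of the 12 protein-coding genes with the most positive called interaction above the same abundance limit. Of 10 listed genes 5 were called higher and 1 lower, against 0.796% and 2.94% of all tested genes. The list median was 0.73 for the interaction, 0.12 at remyelination and -0.65 in demyelination. The 5 were the chain genes H2-Eb1 (2.26 ± 0.42), H2-Aa (2.02 ± 0.39) and H2-Ab1 (1.83 ± 0.35), the invariant chain gene Cd74 (1.44 ± 0.29) and Ciita (1.27 ± 0.35), the transactivator that switches the others on. H2-Oa, a subunit of the chaperone that restrains peptide loading, was called lower (-0.76 ± 0.17, adjusted p = 0.0173). The loading genes H2-DMa (-0.19), H2-DMb1 (0.05) and H2-DMb2 (-0.25) and H2-Ob (0.19) were not called.

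H2-Eb1 (chromosome 17, 34305867 to 34316674) stood at 288.9, 134.4 and 158.9 CPM in Cre+ mice and at 117.9, 142.1 and 188.9 CPM in Cre- libraries at remyelination. Its levels in demyelination were 87.44, 74.71 and 61.12 CPM in Cre+ mice and 252.6, 273.6 and 300.6 CPM in Cre- libraries. The genotypes overlapped at remyelination and were apart in demyelination. The log2 effect was 0.37 at remyelination (95% interval -0.24 to 0.99, adjusted p = 0.755) and -1.89 ± 0.30 in demyelination (edgeR adjusted p = 0.00132), and the interaction had adjusted p = 0.0115.

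H2-Aa (chromosome 17, 34282744 to 34287823) had 300.7, 177.1 and 192.8 CPM in Cre+ mice and 154.1, 178.5 and 254.3 CPM in Cre- libraries at remyelination. It had 157.1, 143.2 and 120 CPM in Cre+ mice and 481.1, 497.2 and 510.7 CPM in Cre- libraries in demyelination. The state difference, remyelination minus demyelination, was 0.67 ± 0.28 within Cre+ (edgeR adjusted p = 0.0409) and -1.34 ± 0.28 within Cre- (adjusted p = 0.000516), so Cre- levels were lower at remyelination while Cre+ levels were higher.

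Cd74 had 1234, 696.7 and 771.2 CPM in Cre+ mice and 678.9, 870.6 and 905.6 CPM in Cre- libraries at remyelination, against 1107, 945.3 and 925 CPM in Cre+ mice and 2502, 2541 and 2311 CPM in Cre- libraries in demyelination. Cre- libraries in demyelination were the high group, and the genotypes overlapped at remyelination. Ciita had 4.461 to 6.339 CPM in Cre+ mice and 3.911 to 6.627 CPM in Cre- at remyelination, and 1.887 to 2.106 CPM in Cre+ mice and 3.617 to 5.203 CPM in Cre- in demyelination.

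The promoters of 2 class II genes are shown because both genes were called higher in the interaction. Their capitals mark CCAAT, or ATTGG where the match lies on the other strand.
H2-Aa promoter, chr17:34287824-34288073, minus strand: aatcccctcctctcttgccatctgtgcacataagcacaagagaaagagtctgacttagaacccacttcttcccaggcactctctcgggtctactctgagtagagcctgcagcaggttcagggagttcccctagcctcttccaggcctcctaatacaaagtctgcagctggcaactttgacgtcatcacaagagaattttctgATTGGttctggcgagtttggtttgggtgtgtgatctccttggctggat
H2-Eb1 promoter, chr17:34305617-34305866, plus strand: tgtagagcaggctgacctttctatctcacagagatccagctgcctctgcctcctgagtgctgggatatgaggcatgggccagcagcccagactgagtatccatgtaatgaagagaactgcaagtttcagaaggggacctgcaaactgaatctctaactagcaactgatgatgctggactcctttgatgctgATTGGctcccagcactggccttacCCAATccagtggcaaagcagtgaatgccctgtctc
CCAAT was present in 7 of 8 windows (87.5%), from 7 of the 10 class II genes, and TTTGAA in 0 of 8.

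Border-associated macrophages, monocytes and dendritic cells also carry class II. Of 10 border-associated macrophage markers 0 was called in the interaction (median 0.43), and their summed level was 451.3 to 617 CPM in Cre+ mice and 526.5 to 591.1 CPM in Cre- at remyelination, and 219.5 to 250.5 CPM in Cre+ mice and 289 to 360.8 CPM in Cre- in demyelination. Of 9 monocyte markers 0 was called (median 0.09), with summed levels of 168 to 258.5 CPM in Cre+ mice and 218.4 to 546.7 CPM in Cre- at remyelination, and 500.5 to 823.7 CPM in Cre+ mice and 252.8 to 385.1 CPM in Cre- in demyelination. Single monocyte markers differed from their sum. In demyelination their median effect was -1.22, with 3 of the 9 called lower and 1 higher in Cre+. For the border-associated markers it was -0.44, with 2 of the 10 called lower and 0 higher. Over all tested genes 3.48% were called lower and 5.69% higher in Cre+ in demyelination. The part of border-associated macrophages, monocytes and dendritic cells in the class II result was not tested. Without demyelination Cre+ replicates 1 and 3 the interactions were 2.25 for H2-Eb1, 1.98 for H2-Aa and 1.51 for Cd74, with 0 of the 10 genes called; without remyelination Cre- replicate 2 alone, 2 were called higher. The 12 listed genes of MHC class I, which every nucleated cell uses, had 0 called and a median of -0.07; their near-identical copies make counts of single H2 genes uncertain.

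Other genes among the 12 most positive were the matrix genes Postn (1.93 ± 0.45) and Col14a1 (1.69 ± 0.33), the MYC family gene Mycl (1.65 ± 0.46), the complement protease gene C1rl (1.42 ± 0.34), the GTPase-activating gene Dlc1 (1.36 ± 0.31), the vesicle priming gene Unc13b (1.30 ± 0.25), the transporter gene Mfsd7a (1.29 ± 0.35) and the sterol hydroxylase gene Cyp27a1 (1.28 ± 0.17). Cyp27a1 (chromosome 1, 74713574 to 74737892) stood at 127.6, 132.4 and 131.5 CPM in Cre+ mice and at 117.3, 118.8 and 124.2 CPM in Cre- libraries at remyelination. In demyelination it stood at 57.69, 93.15 and 70.24 CPM in Cre+ mice and at 162.2, 175.1 and 157.6 CPM in Cre- libraries. Its effect of 0.12 at remyelination had the narrow interval of -0.12 to 0.36, against -1.16 ± 0.12 in demyelination (edgeR adjusted p = 5.7e-06). The interaction of Cyp27a1 had adjusted p = 0.000609 and kept its call in each of the 12 fits that left out 1 library, with adjusted p of up to 0.00431. With demyelination Cre+ replicates 1 and 3 left out, which leaves 1 Cre+ library in that state, the interaction of Cyp27a1 was 0.94.

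Col14a1 differed in form from the rest: its larger effect was at remyelination. It had 9.241, 9.513 and 10 CPM in Cre+ mice and 3.828, 5.512 and 5.117 CPM in Cre- libraries at remyelination, against 2.48, 1.462 and 1.566 CPM in Cre+ mice and 2.686, 3.212 and 3.169 CPM in Cre- libraries in demyelination. The effect was 0.99 at remyelination (95% interval 0.51 to 1.46, adjusted p = 0.164) and -0.70 ± 0.24 in demyelination (edgeR adjusted p = 0.0677). Of 8 mural cell markers 0 was called (median 0.96), and they summed to 109.9 to 131.9 CPM in Cre+ mice and 48.32 to 79.4 CPM in Cre- at remyelination, and 88.35 to 131.8 CPM in Cre+ mice and 53.76 to 72.87 CPM in Cre- in demyelination. Their part in the Col14a1 result was not tested.

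Several extreme genes followed the low-Cx3cr1 libraries. The basement membrane gene Nid2 stood at 36.2, 41.2 and 35.29 CPM in Cre+ mice and at 34.06, 25.87 and 42.78 CPM in Cre- libraries at remyelination. Its levels in demyelination were 149.9, 38.96 and 102.9 CPM in Cre+ mice and 13.32, 14.84 and 22.04 CPM in Cre- libraries. Cre+ replicates 1 and 3 were high, and without them the interaction was -1.09 instead of -2.40. Postn showed the reverse, with 29.29, 99.71 and 40.98 CPM in Cre+ mice and 220.2 to 270.2 CPM in Cre- libraries in demyelination, against 18.24 to 20.48 CPM in Cre+ mice and 18.06 to 24.45 CPM in Cre- at remyelination. Without the 2 libraries the interaction of Postn was 1.11.

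The same held for the olfactomedin gene Olfm4 (-2.89, and -1.62 without them), the p53 effector gene Perp (-2.76 and -1.57), the Rab regulator gene Dennd3 (-2.18 and -0.86), Mycl (1.65 and 0.90), C1rl (1.42 and 0.85) and Dlc1 (1.36 and 0.86). In all, 8 of the 24 genes at the ends of the ranking shrank by over 1.5 times. Olfm4, which a subset of neutrophils expresses, stood highest at remyelination in the Cre- library richest in neutrophil markers (12.8 CPM, against 5.692 and 8.556 CPM). In demyelination Cre+ replicates 1, 2 and 3 the neutrophil markers summed to 1689, 1535 and 1345 CPM. The part of neutrophils in the Olfm4 result was not tested.

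**Figure D3:**
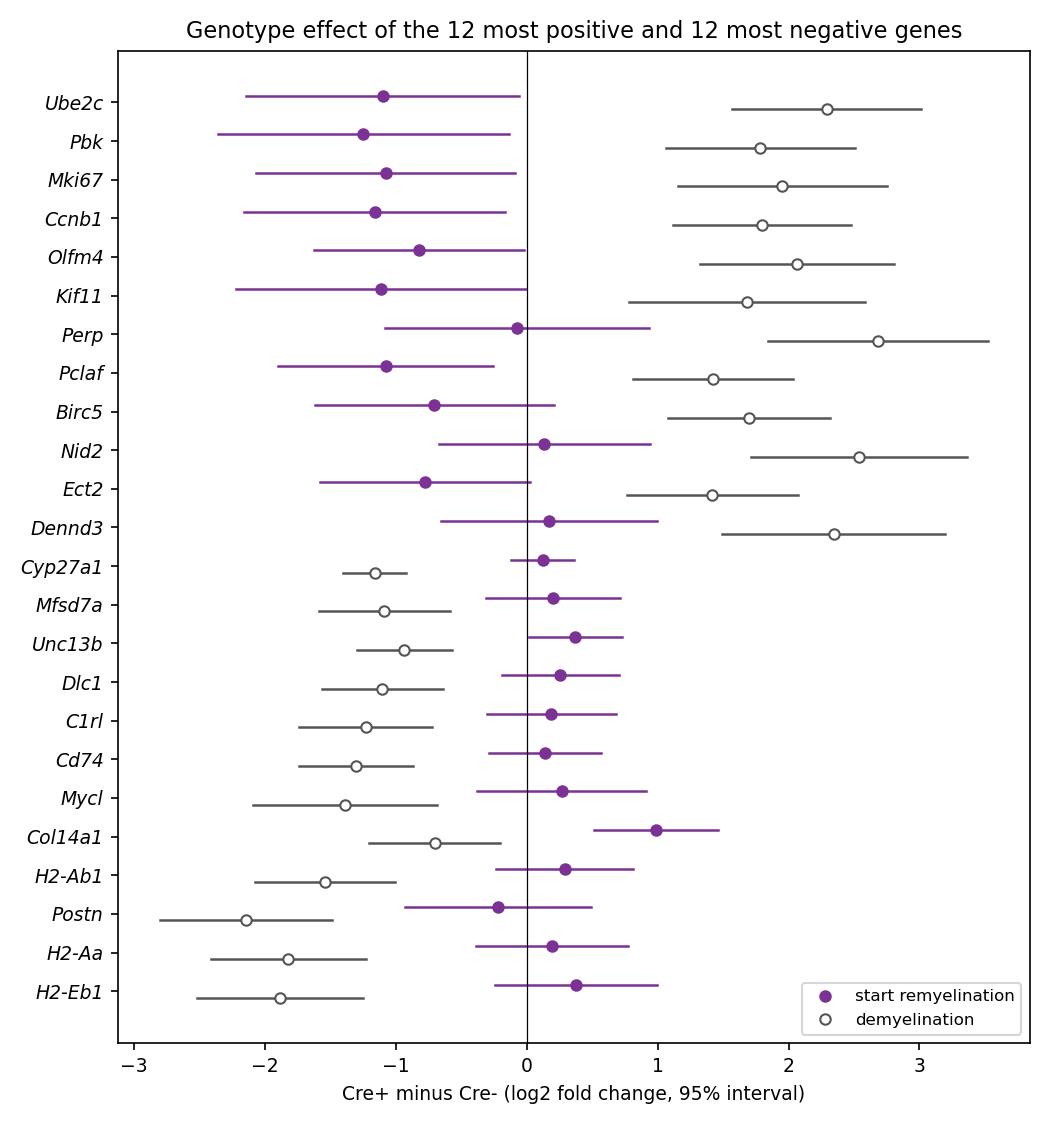
Log2 difference between Cre+ and Cre- with 95% intervals at remyelination (filled) and in demyelination (open) for the 12 genes with the most negative and the 12 with the most positive called interaction. Intervals of the demyelination effects lie away from 0, while most of those at remyelination reach 0 or nearly so, with Col14a1 (0.51 to 1.46) and Pclaf (-1.90 to -0.26) among those that do not.

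**Figure D4:**
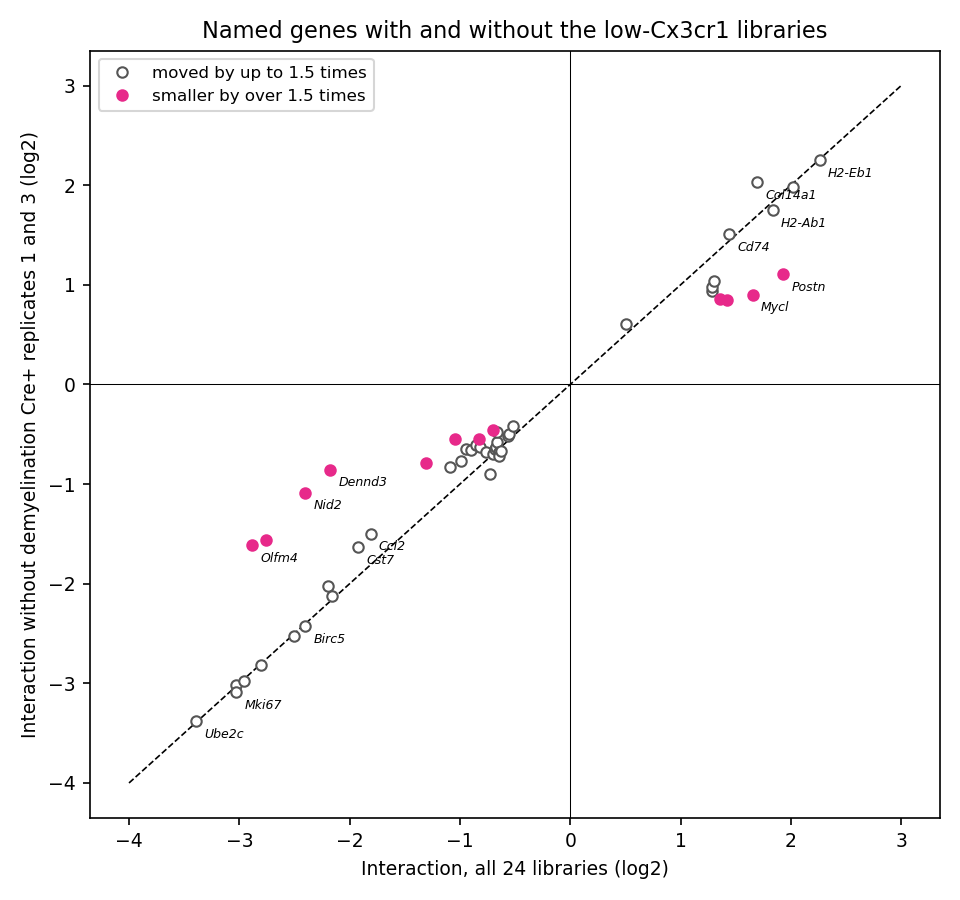
Interaction of the 51 named called genes without demyelination Cre+ replicates 1 and 3 (vertical axis) against the value from all libraries (horizontal axis), on the log2 scale. Mitotic and class II genes lie on the dashed line of equal values, and 12 of the 51 genes shrink by over 1.5 times, among them Nid2 and Postn.

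Inflammatory ligands were called lower in 3 of 16 tested cases (2.94% over all tested genes), with a list median of -0.79. They were the monocyte attractants Ccl2 (-1.81 ± 0.28, adjusted p = 0.00505) and Ccl12 (-1.30 ± 0.24, adjusted p = 0.00864) and the cytokine gene Il1a (-0.85 ± 0.23, adjusted p = 0.0401). Ccl2 (chromosome 11, 82035571 to 82037453) had 24.13, 22.5 and 25.6 CPM in Cre+ mice and 30.13, 28.54 and 22.65 CPM in Cre- libraries at remyelination. It had 148.7, 102.6 and 131.7 CPM in Cre+ mice and 45.27, 40.92 and 36.7 CPM in Cre- libraries in demyelination. The genotypes overlapped at remyelination, with an effect of -0.17 (95% interval -0.59 to 0.25), and were apart in demyelination (1.64 ± 0.19, edgeR adjusted p = 8.29e-05). Ccl2 and Ccl12 kept their calls in each fit that left out 1 library, and Ccl12 lost its call with correction for GC content and gene length (-0.98, adjusted p = 0.0841). Without demyelination Cre+ replicates 1 and 3 Ccl12 was at -0.79 and Ccl2 at -1.50, with 0 of the 16 called. At the peak the genotype effect of Ccl2 was 1.69 (adjusted p = 2.56e-05).

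Genes of the disease-associated state, which microglia take on around damaged myelin, were called lower in 5 of 24 cases and higher in 0, with a median of -0.43. Cst7 (cystatin F, an inhibitor of lysosomal proteases; chromosome 2, 150570415 to 150578944) had the largest of these. It stood at 26.2, 26.11 and 23.92 CPM in Cre+ mice and at 30.72, 56.89 and 31.46 CPM in Cre- libraries at remyelination, and at 2797, 1968 and 2434 CPM in Cre+ mice and 1093, 1136 and 742.6 CPM in Cre- libraries in demyelination. Cre+ was below Cre- in the first state and above it in the second, without overlap. The effect was -0.64 at remyelination (95% interval -1.12 to -0.16, adjusted p = 0.358) and 1.28 ± 0.21 in demyelination (edgeR adjusted p = 0.00144), and the interaction was -1.92 ± 0.31 (adjusted p = 0.0066). Levels of Cst7 at remyelination were lower than in demyelination in both genotypes, by -6.56 ± 0.27 within Cre+ and -4.64 ± 0.25 within Cre-. The other 4 called were the tetraspanin gene Cd63 (-0.61), the signalling adaptor Tyrobp (-0.64) and the cathepsin genes Ctsd (-0.56) and Ctsl (-0.81). For Cd63 the effect was at remyelination (-0.57) and hardly in demyelination (0.04), neither of them called.

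Lysosomal genes, which break down engulfed myelin, were called lower in 7 of 33 cases, among them Glb1 (-0.90), Ctsl (-0.81), Gusb (-0.70), Ctsz (-0.67) and Npc2 (-0.64). The list median was -0.29. Gusb, which encodes beta-glucuronidase, had 345.3 to 390.9 CPM in Cre+ mice and 335.1 to 357.7 CPM in Cre- at remyelination, and 1215 to 1649 CPM in Cre+ mice and 778.6 to 893 CPM in Cre- in demyelination. Glb1, the beta-galactosidase gene, had 62.07 to 79.58 CPM in Cre+ mice and 94.41 to 106.6 CPM in Cre- at remyelination, and 203.7 to 280.4 CPM in Cre+ mice and 175.7 to 201.1 CPM in Cre- in demyelination. Cre+ and Cre- were apart in both states for Glb1, in opposite orders.

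Interferon response genes were called lower in 3 of 30 cases: Ifit2 (-1.09), Ifit3 (-1.05, uncertain because Ifit3b is a near-identical copy) and Isg15 (-0.99), all antiviral effectors. The median was -0.40, with 26 of 30 values negative. Phagocytosis and complement genes were called lower in 3 of 23 tested cases (median -0.19): the TAM receptor ligand gene Gas6 (-0.83), the integrin gene Itgam (-0.52) and the Fc receptor chain gene Fcer1g (-0.56). Homeostatic microglial genes had 1 of 20 called, Sparc (-0.94 ± 0.18, adjusted p = 0.00953), and a median of -0.07. Sparc, a secreted matrix protein gene, stood at 2099 to 2416 CPM in Cre+ mice and 2209 to 2423 CPM in Cre- at remyelination, and at 5496 to 7938 CPM in Cre+ mice and 3379 to 3792 CPM in Cre- in demyelination. Of 19 tested p53 targets Perp alone was called (median -0.17). A single call in 19 or 20 genes does not set a list apart from all tested genes.

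These counts stood beside 2.94% of all tested genes called lower, and they varied with single libraries. Lysosomal calls ran from 1 (without demyelination Cre- replicate 3, demyelination Cre+ replicate 1, remyelination Cre- replicate 2 or remyelination Cre+ replicate 2) to 11 (without demyelination Cre+ replicate 2), and disease-associated calls from 1 (without those same 4, each in turn) to 5, with 3 without remyelination Cre+ replicate 1. Interferon calls were 0 without those 4 or demyelination Cre+ replicate 3, 1 without demyelination Cre- replicate 1, remyelination Cre- replicate 1 or 3 or remyelination Cre+ replicate 3, and 7 without demyelination Cre+ replicate 2. The lysosomal, disease-associated and interferon lists had 0 calls without demyelination Cre+ replicates 1 and 3.

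**Figure D5:**
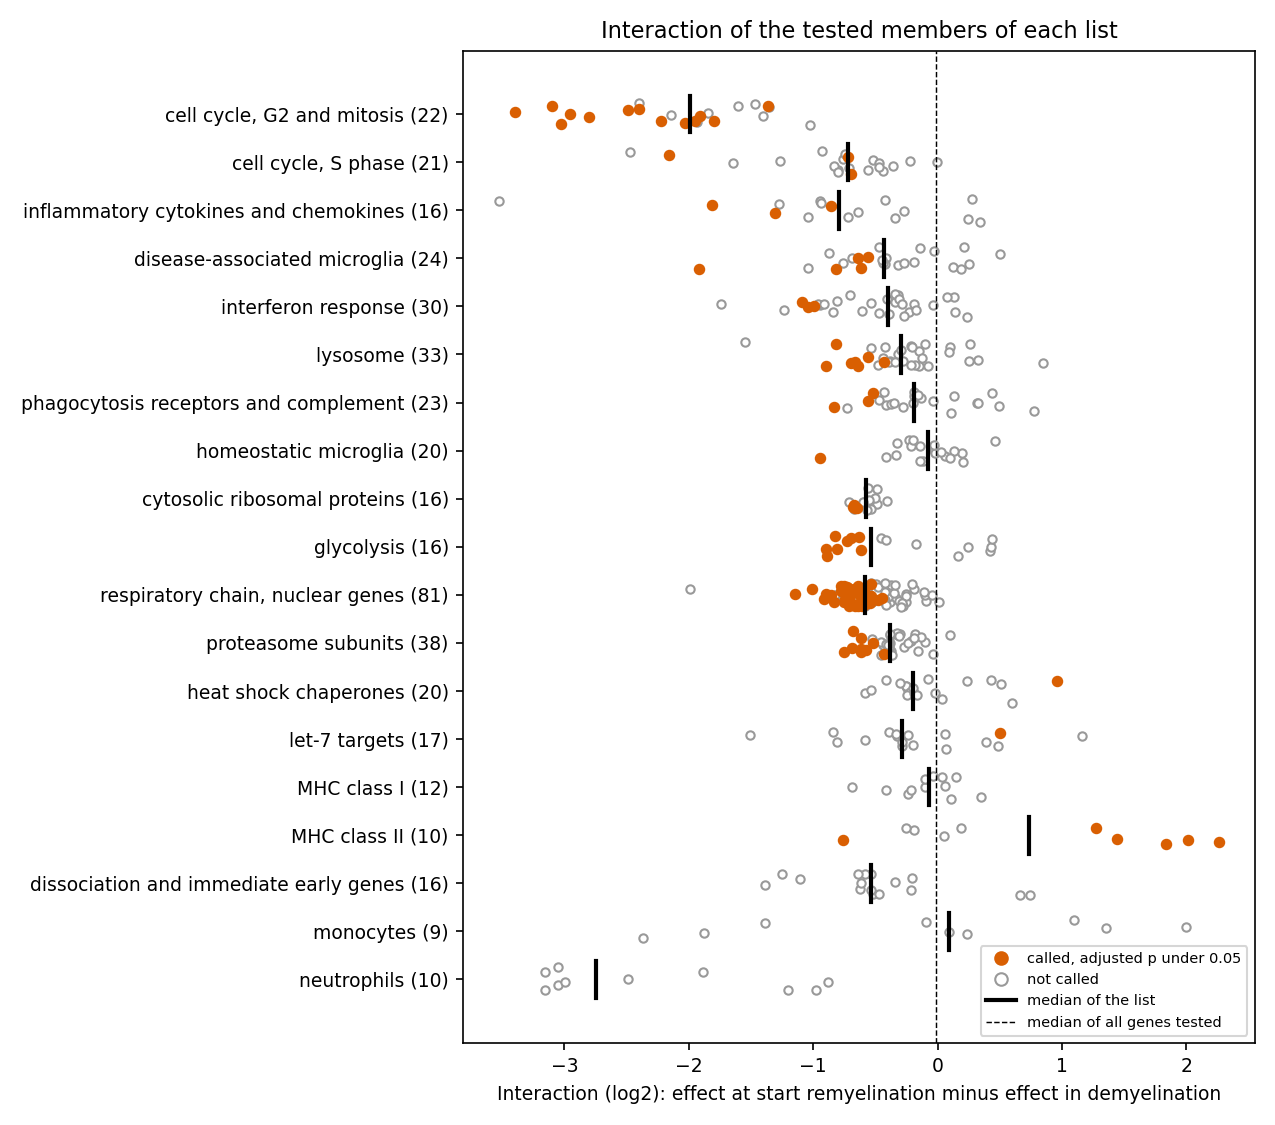
Interaction on the log2 scale for each tested member of 19 gene lists (numbers tested in parentheses), with called genes filled, list medians as bars and the median of all 17579 genes dashed. Mitotic genes lie furthest to the left among lists with calls (median -1.99), class II genes to the right (median 0.73), and respiratory chain genes form a narrow band (median -0.59).

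Interaction calls in the lists of energy supply were all lower at remyelination, with small values (2.94% of all tested genes were called lower). These lists, like those of proteasome subunits and heat shock chaperones, were chosen after values of these data had been seen. Of 81 tested nuclear genes of the respiratory chain 37 were called lower and 0 higher in the interaction, with 80 of 81 values negative and a median of -0.59 (-0.28 at remyelination, 0.29 in demyelination). The complex I genes Ndufa1 (-1.14 ± 0.21, adjusted p = 0.00749), Ndufa3 (-0.78) and Ndufb9 (-0.75), the cytochrome oxidase genes Cox5a (-1.01) and Cox6c (-0.90) and the ATP synthase gene Atp5j (-0.72) were among them. Of 13 genes of the mitochondrial genome mt-Co1 (-0.76) and mt-Cytb (-0.62) were called, and all 13 were negative. Of 16 glycolysis genes 8 were called lower and 0 higher, with Ldha, Pgam1, Pgk1 and Gapdh at the head.

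Ldha, which encodes lactate dehydrogenase A, had 187.1, 173.3 and 209.7 CPM in Cre+ mice and 220.5, 257.3 and 235.8 CPM in Cre- libraries at remyelination. It had 1205, 1103 and 1114 CPM in Cre+ mice and 781.3, 813.5 and 721.7 CPM in Cre- libraries in demyelination. The genotypes stood in opposite orders in the 2 states, without overlap. The effect of Ldha was -0.32 at remyelination (95% interval -0.51 to -0.14, adjusted p = 0.241) and 0.56 ± 0.09 in demyelination (edgeR adjusted p = 0.000454), with an interaction of -0.89 ± 0.13 (adjusted p = 0.00145). Pgam1 was at -0.89, Pgk1 at -0.83, Gapdh at -0.81, Pfkl at -0.73, Tpi1 at -0.70, Aldoa at -0.63 and Pkm at -0.62.

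Of 16 listed cytosolic ribosomal protein genes 4 were called lower, Rps19 (-0.68) and Rpl5 (-0.67) among them, and all 16 were negative (median -0.58). Of 38 tested proteasome subunits 9 were called lower, Psmb1 (-0.76), Psma1 (-0.68) and Psmb2 (-0.62) among them, with a median of -0.39. These abundant, mostly short genes share a narrow range, and other library measures differed along with them: genes detected per library were 24593 to 26012 in Cre+ and 23426 to 24046 in Cre- at remyelination, and 22524 to 22904 in Cre+ and 22831 to 23295 in Cre- in demyelination. The mitochondrial genome took 0.342% to 0.4% of counts in Cre+ and 0.405% to 0.535% in Cre- at remyelination, and 0.896% to 0.916% in Cre+ and 0.73% to 0.819% in Cre- in demyelination. With upper quartile scaling 24 respiratory chain genes were called, and with correction for GC content and gene length 32. The respiratory chain count was 2 without demyelination Cre+ replicate 1 or remyelination Cre- replicate 2, 4 without demyelination Cre- replicate 3, 5 without remyelination Cre+ replicate 2, 20 without remyelination Cre- replicate 1, 22 without demyelination Cre- replicate 2, and 26 to 46 without any one of the other 6 libraries. With demyelination Cre+ replicates 1 and 3 left out it was 0.

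The glycolysis, proteasome, ribosomal and mitochondrial genome lists had 0 calls without demyelination Cre+ replicates 1 and 3, and their counts also moved with single libraries. Glycolysis calls were 3 without demyelination Cre+ replicate 1, remyelination Cre- replicate 2 or remyelination Cre+ replicate 2, and 5 without demyelination Cre- replicate 1 or 3. Proteasome calls were 1 without demyelination Cre+ replicate 1 or remyelination Cre+ replicate 2, 2 without demyelination Cre- replicate 3 or remyelination Cre- replicate 2, 4 without demyelination Cre- replicate 2, remyelination Cre- replicate 1 or remyelination Cre+ replicate 1, and 5 without demyelination Cre+ replicate 3. Ribosomal calls were 0 without demyelination Cre- replicate 3, demyelination Cre+ replicate 1, remyelination Cre- replicate 2 or remyelination Cre+ replicate 2, 1 without demyelination Cre- replicate 2, and 2 without demyelination Cre- replicate 1, demyelination Cre+ replicate 3 or remyelination Cre+ replicate 3. The 2 mitochondrial genome calls became 0 without any one of 7 libraries (demyelination Cre- replicate 2 or 3, demyelination Cre+ replicate 1 or 3, remyelination Cre- replicate 2, remyelination Cre+ replicate 1 or 2) and 1 without demyelination Cre- replicate 1 or remyelination Cre- replicate 1.

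The 6 genes called between genotypes at remyelination were Hsph1, Dnajb1, Hspe1, Hsp90aa1, Gadd45g and the predicted gene Gm8696, and 4 of them are heat shock chaperones. The count was 1 without remyelination Cre- replicate 3 and 2 without remyelination Cre+ replicate 1. Hsph1, a nucleotide exchange factor of HSP70, stood at 55.68, 54.32 and 53.29 CPM in Cre+ mice and at 24.14, 23.29 and 20.8 CPM in Cre- libraries at remyelination. In demyelination it stood at 26.77, 16.84 and 26.13 CPM in Cre+ mice and at 19.13, 19.77 and 17.69 CPM in Cre- libraries. The Cre+ libraries at remyelination were the high group, and the genotypes overlapped in demyelination. The effect was 1.26 at remyelination (95% interval 0.95 to 1.57, edgeR adjusted p = 0.000139) and 0.30 ± 0.15 in demyelination, and the interaction was called at 0.96 ± 0.21 (adjusted p = 0.0147), a call lost without remyelination Cre- replicate 2.

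Gadd45g, a stress sensor gene that slows the cell cycle, was the other of the 6 with a called interaction (0.91 ± 0.18, edgeR adjusted p = 0.00995). It had 56.21, 53.27 and 59.69 CPM in Cre+ mice and 31.5, 38.94 and 30.45 CPM in Cre- libraries at remyelination, against 48.47, 44.34 and 41.9 CPM in Cre+ mice and 48.94, 46.46 and 55.24 CPM in Cre- libraries in demyelination. For the co-chaperone genes Dnajb1 (0.82 at remyelination, 0.31 in demyelination) and Hspe1 (0.79 and 0.55) and for Hsp90aa1 (0.76 and 0.72) the interaction was not called. Of 20 listed chaperone genes 4 were called higher in Cre+ at remyelination and 6 in demyelination. Over all tested genes 0.0341% were called at remyelination, all higher in Cre+, and 5.69% were called higher in demyelination. The chaperone list was chosen after values of these data had been seen, so its counts are a description only. Hspa1a and Hspa1b, near-identical copies with uncertain single counts, had large effects in both states (1.43 and 1.40 at remyelination, 2.01 and 1.93 in demyelination), which passed the threshold in demyelination. The 16 dissociation and immediate early genes had 0 called, a median of -0.54 for the interaction and -0.75 at remyelination, and a summed level of 7642 to 8699 CPM in Cre+ mice and 6454 to 10640 CPM in Cre- at remyelination, against 7320 to 8426 CPM in Cre+ mice and 9443 to 10240 CPM in Cre- in demyelination. Their part in the chaperone result was not tested.

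Lists tied to miRNAs held 1 call, against 3.74% of all tested genes. Apart from Dicer1, 0 of 12 genes that make or use miRNAs was called (median -0.10), with Ago4 at 0.47 (adjusted p = 0.182) and Drosha at -0.27 (adjusted p = 0.494). Of 17 tested let-7 targets 1, the transcription factor gene Arid3b, was called higher (0.50, adjusted p = 0.0498, and lost in 10 of the 12 fits that left out 1 library), with a list median of -0.28. Of 12 listed targets of miR-155 and miR-146a 0 was called (median -0.01).

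The lists of cholesterol biosynthesis (median -0.12, 23 genes), lipid efflux and storage (-0.01, 17 tested), growth and repair factors (-0.23, 11 tested) and TGF-beta signalling (-0.02, 16 genes) had 0 called. Markers of T, NK and B cells (2 tested), oligodendrocytes (9), oligodendrocyte precursors (6), astrocytes (11), neurons (7), endothelial cells (8) and erythroid cells (5) had 0 called as well, with medians of -1.25, -0.31, 0.00, 0.08, 0.06, 0.10 and -0.62 in that order.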

How the data were processed

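RNA sequencing counts per gene of 24 microglia libraries in 8 groups of 3 were used, 12 libraries of 4 groups in the comparison. The authors deposited whole-number counts, not normalized. Per the submitters' processing notes the tools were Trimmomatic 0.36, STAR 2.5.2b, Subread 1.5.2 with featureCounts and DESeq2, on GRCm38; the sources used here do not give strand or multi-mapping settings, and near-identical or overlapping genes are therefore uncertain. Of 49315 identifiers 49056 matched GENCODE annotation of that build and 259 did not.

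Counts were filtered with filterByExpr, scaled by TMM and fitted over all 24 libraries with edgeR 4.0.16 in R 4.3.3 (quasi-likelihood F test, 2-sided, 16 residual degrees of freedom, Benjamini-Hochberg adjustment over 17579 genes, threshold 0.05). Standard errors are the log2 fold change over the square root of F, and intervals cover 95%. CPM are counts per M on TMM-scaled library sizes, and levels are not compared between genes. Replicates are separate samples per the labels, and no pair held identical counts. Code was tested on simulated data before use. DESeq2 1.42.0 was an alternative, beside other scalings, filters, a replicate block, GC content and length correction, thinning and left-out libraries. Figures used Python 3.11.15 and matplotlib 3.10.9.

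Named genes were Dicer1, Cx3cr1, the 12 called protein-coding genes at each end whose mean log2 CPM reached 2 or more and whose genotypes did not overlap in the state with the larger effect, and up to 4 members of each list with the smallest p; further called list members are named from the lists. The comparison, members and lists were chosen with earlier results of these data known. The lists of glycolysis, heat shock chaperones, respiratory chain and proteasome were added after values had been seen. A few list members are not reported here by name. Sequences are from RefSeq, GRCm38.p6.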

Additional observations from a re-analysis of the deposited data

Results flagged for a closer look

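The test of the difference between the 2 genotype effects itself called 657 genes (edgeR quasi-likelihood F test, adjusted p under 0.05), and those of them named by rule are given here. Interactions, as remyelination minus demyelination on the log2 scale, were furthest below 0 for Ube2c (-3.39), Pbk (-3.03), Mki67 (-3.03), Ccnb1 (-2.96), Olfm4 (-2.89), Kif11 (-2.80), Perp (-2.76), Pclaf (-2.50), Birc5 (-2.40), Nid2 (-2.40), Ect2 (-2.19), Dennd3 (-2.18), Ccne2 (-2.16), Cst7 (-1.92) and Ccl2 (-1.81). A second set lay between these and the rest: Ccl12 (-1.30), Ifit2 (-1.09), Ifit3 (-1.05), Isg15 (-0.99), Sparc (-0.94), Glb1 (-0.90), Il1a (-0.85), Gas6 (-0.83) and Ctsl (-0.81). Smaller negative interactions passed the test for mt-Co1 (-0.76), Pcna (-0.72), Rrm1 (-0.70), Gusb (-0.70), Rps19 (-0.68), Rpl5 (-0.67), Rps3 (-0.67), Ctsz (-0.67), Tyrobp (-0.64), mt-Cytb (-0.62), Fcer1g (-0.56), Ctsd (-0.56) and Itgam (-0.52). Positive interactions passed it for H2-Eb1 (2.26), H2-Aa (2.02), Postn (1.93), H2-Ab1 (1.83), Col14a1 (1.69), Mycl (1.65), Cd74 (1.44), C1rl (1.42), Dlc1 (1.36), Unc13b (1.30), Mfsd7a (1.29), Cyp27a1 (1.28) and Arid3b (0.50). The calls of most of these genes were lost without some single library, and 13 of all 51 named called genes kept theirs in each of the 12 fits that left out 1 library.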

How the results depend on the processing

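The 657 calls (140 higher, 517 lower) kept their sign in every alternative, while their number did not. With upper quartile scaling 329 were lower. Without the filter on low counts 215 were higher and 811 lower, with 37 higher and 44 lower at remyelination and 809 called in the interaction and in demyelination but not at remyelination (472 with the filter). With only the 12 libraries fitted 861 were lower and 737 fell in that last class. With DESeq2 220 were higher and 1232 lower, 72 were lower at remyelination and 990 fell in that class. At remyelination 1 gene was lower with GC content and length correction and 3 with counts thinned to the shallowest library, against 0 in the reported analysis. Without demyelination Cre+ replicates 1 and 3 interaction calls were 2 higher and 1 lower, demyelination calls 3 higher and 3 lower, and the class held 1. Without the naive low-Cx3cr1 library as well they were 5 and 39, 75 and 6, and 32, with 11 higher and 2 lower at remyelination. The cause of these changes was not tested, beyond the fewer libraries or genes that some hold.

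Leaving out 1 library at a time gave 21 to 331 higher and 68 to 842 lower interactions, 277 to 1330 higher and 145 to 835 lower in demyelination, 1 to 8 higher and 0 to 3 lower at remyelination, and 65 to 918 in the class. The highest interaction and demyelination counts came without demyelination Cre+ replicate 2. With a replicate block 141 were higher and 513 lower. The numbers do not pair the libraries: same-number correlations of deviations were 0.013, -0.124 and -0.104 at remyelination and -0.186, -0.08 and -0.321 in demyelination. Of the 51 named called genes Ifit3 alone lost its call with the block. GC content and length correction ended the calls of Ccl12, Ifit3, Isg15, mt-Cytb, Fcer1g, Arid3b and Mycl. Over all alternatives 351 of 1224 values of these genes lost the call and 0 changed sign. Genes under about 5 CPM rest on few reads in the shallower remyelination libraries, so effects there have wide intervals.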
